A study of Mus musculus with 2 samples.

Results

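Matricellular and elastic-fibre genes, 10 in all (Postn, Spon1, Fn1, Fbln1, Fbln2, Sparc, Tnc, Thbs1, Eln and Emilin1), were followed across the cell types of the embryonic mouse heart. They were found by Ensembl ID and symbol, and all 10 of the 10 were among the 22399 genes of both UMI matrices. They were named with comparisons of these libraries already known, so their levels are a description and no test was made on them. Whole hearts at E11.5 (embryonic day) were profiled by droplet single-cell RNA sequencing in 2 libraries, 1 per genotype. Control embryos carried 1 floxed and 1 wild-type Hand2 allele (Hand2fx/+) and 1 copy of the R26RmTmG reporter, with no Cre listed. H2CKO embryos carried Nfatc1Cre/wt, floxed Hand2 on both chromosomes (Hand2fx/fx) and the same single reporter copy. Nfatc1Cre acts in the endocardium, the inner lining of the heart, and in cells that descend from it, and it switches the reporter from Tomato to GFP. Embryos of both genotypes waited on ice for about 3 h before their hearts were dissociated. The labels do not say how many embryos, or of which sex, went into a library, so every interval below covers counting error only and nothing here measures the spread between embryos.

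Matricellular proteins are secreted into the matrix mainly to change how cells attach, move and respond to growth factors, whereas elastic fibres give a tissue recoil. Elastic fibres form when tropoelastin, the product of Eln, is laid on a scaffold of fibrillin microfibrils with the help of fibulins, EMILINs and lysyl oxidases. In the heart at this stage the endocardial cushions, the forerunners of the valves and septa, fill with mesenchyme that arises from endocardium and secretes such a matrix, and periostin is a known product of that mesenchyme.

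Among the matricellular members, Postn encodes periostin (chr3:54361109-54391037, plus strand, coordinates on GRCm38 from GENCODE vM21), a fasciclin-domain protein of valve and tendon. Spon1 encodes F-spondin (chr7:113765998-114043370, plus strand), a thrombospondin-repeat protein first known from the floor plate of the neural tube. Sparc encodes osteonectin (chr11:55394500-55423183, minus strand), a collagen-binding glycoprotein. Tnc encodes tenascin-C (chr4:63959785-64047015, minus strand), and Thbs1 encodes thrombospondin-1 (chr2:118111876-118127133, plus strand), an activator of latent TGF-beta. Fn1 encodes fibronectin (chr1:71585520-71653200, minus strand), the adhesive glycoprotein on which much of the embryonic matrix is assembled. Fbln1 (chr15:85205949-85286535, plus strand) and Fbln2 (chr6:91212455-91272540, plus strand) encode fibulins, which bind fibronectin, elastin and versican. Eln encodes tropoelastin (chr5:134702593-134747323, minus strand), and Emilin1 encodes an elastin-microfibril interface protein (chr5:30913402-30921277, plus strand). All 10 are protein-coding genes with several exons, from 8 in the longest listed Emilin1 transcript to 46 in that of Fn1. The span from first to last annotated base runs from 7876 bases for Emilin1 to 277373 for Spon1. Fn1, Tnc, Thbs1 and Eln each overlap 1 annotated gene on the opposite strand (Apol7d, 8030451A03Rik, Gm29233 and Gm30003), and none of those 4 was a counted feature.

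Upstream sequence from RefSeq (GRCm38.p6) was found for 6 of the 10 members, Postn, Tnc, Emilin1, Fbln2, Sparc and Fbln1, in 9 windows of 250 bases before an annotated start site. No entry was given for Spon1, Fn1, Thbs1 and Eln. Of the 4 windows that hold no base of an annotated exon, 3 are printed, because they show the start-site regions of 2 members that stood lower in H2CKO in mesenchymal-like cells or endothelial cells (Tnc and Postn) and of Fbln1, whose levels differed little between the libraries in both. Each reads 5′ to 3′ on the strand of its gene and ends at the base before the start site, and capitals mark matches to the motifs searched.
Postn, chr3:54360857-54361106, plus strand: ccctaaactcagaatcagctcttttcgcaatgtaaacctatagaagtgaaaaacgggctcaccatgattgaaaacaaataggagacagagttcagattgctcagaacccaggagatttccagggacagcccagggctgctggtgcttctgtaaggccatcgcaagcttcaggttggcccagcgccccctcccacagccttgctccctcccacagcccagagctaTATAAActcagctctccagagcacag
Tnc, chr4:64047016-64047265, minus strand: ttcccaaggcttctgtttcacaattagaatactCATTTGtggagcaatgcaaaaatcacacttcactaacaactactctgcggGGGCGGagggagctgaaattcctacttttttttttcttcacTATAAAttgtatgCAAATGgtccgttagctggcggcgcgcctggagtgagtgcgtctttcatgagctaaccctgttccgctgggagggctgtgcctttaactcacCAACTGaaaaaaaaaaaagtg
Fbln1, chr15:85205699-85205948, plus strand: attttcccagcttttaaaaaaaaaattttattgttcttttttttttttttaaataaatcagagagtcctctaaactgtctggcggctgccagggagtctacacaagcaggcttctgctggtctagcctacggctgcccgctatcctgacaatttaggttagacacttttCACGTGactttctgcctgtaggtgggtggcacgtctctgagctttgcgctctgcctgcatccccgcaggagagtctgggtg

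In the Postn window the capitals are a TATA box (TATAAA) that begins 26 bases before the start site. In the Tnc window they are 3 E-boxes (CANNTG), which begin 217, 113 and 21 bases before the start site, a TATA box at 126 bases and a GC box (GGGCGG) at 167 bases. In the Fbln1 window they are 1 E-box, of the CACGTG type, at 81 bases. E-boxes are the sites of basic helix-loop-helix factors, the family to which HAND2 belongs. The motifs were searched on both strands, also TGANTCA (AP-1), GGAATG (TEAD) and CATCTG, an E-box variant known from HAND and TWIST factors that also counts as CANNTG. An E-box lay in 7 of the 9 windows, of 5 of the 6 members with an entry, beside 66.2% of 32851 mouse windows of the same length. CATCTG lay in 2 of the 9 windows, those of Fbln2 and Sparc, beside 14.4% of all windows, and both of those windows overlap annotated exons. TATAAA lay in 3 of the 9, of Postn and Tnc, beside 12.4% of all windows. The windows of Tnc overlap each other, as do those of Fbln1. The Tnc TATAAA and some E-boxes of both genes are thus counted more than once, and the windows are not independent. These matches describe letters and no binding was measured.

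After filtering, 9112 control and 11216 H2CKO cells were kept, with a median of 16354.5 and 13309 UMIs. Cells of both libraries were clustered together on variable genes that left out the 10 members and 57 other matrix and receptor genes, and clusters were called by marker lists that hold no member, so a member's level in a class was not used to form it. Endothelial cells fell into 2 clusters, a named endothelial-like one of 130 control and 484 H2CKO cells, and one led by Stmn2, Wnt4 and Klf2 (272 and 258 cells) that keeps no class name because a neuronal marker led it. It is called the Klf2-rich cluster. Its 12 endothelial markers summed to 4058 CPM in the control and 3616 CPM in H2CKO. Hand2 itself, the targeted gene, stood at 170.1 and 12.8 CPM (UMIs of the gene per 1000000 UMIs of the class, control and H2CKO) in endothelial-like cells, 249.8 and 7.74 CPM in the Klf2-rich cluster and 179 and 47.4 CPM in mesenchymal-like cells. Whether the counted end of its transcript lies inside the floxed part is not given in the sources used here. Erythroid-like cells, which should make none of these matrix proteins, were taken as an estimate of free RNA in each library. No profile of empty droplets was used, and the level of free RNA in other classes may differ. In erythroid-like cells the 10 members summed to 61.3 CPM in the control and 32.1 CPM in H2CKO. Across kept cells, 29 cell barcodes were shared between the libraries.

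Postn marked the mesenchyme. Mesenchymal-like cells held 774 CPM (interval 763 to 786) in the control and 519.8 CPM (interval 506 to 533) in H2CKO, with the exact Poisson 95% interval in brackets here and below. They accounted for 86.1% and 86.6% of all Postn UMIs in kept cells. In the control the next levels were endothelial-like, 123 CPM (interval 109 to 139), the Klf2-rich cluster, 82.5 CPM (interval 74.4 to 91.1), and epicardial-like cells, 52.1 CPM (interval 48.4 to 55.9). In H2CKO that order changed: epicardial-like cells came second at 70.2 CPM (interval 61.6 to 79.6), then the Klf2-rich cluster at 40.6 CPM and endothelial-like cells at 18.6 CPM. Within that class the Tcf21-rich cluster held 159 and 149 CPM, and 400 of the 757 control and 184 of the 242 H2CKO UMIs of Postn, against 21.7 and 22.9 CPM in the Upk3b-rich cluster. The Tcf21-rich cluster kept no epicardial name at resolution 2, with the members used in clustering, without doublet removal, with the strict cell filter or in the cells of the deposited embedding. Cardiomyocyte-like cells had 16.7 and 2.48 CPM, against 3.69 and 2.36 CPM in erythroid-like cells. At an equal depth of 5000 UMIs per cell, 90.9% of control and 80.0% of H2CKO mesenchymal-like cells had a Postn UMI, beside 1.70% and 1.26% of erythroid-like cells. Without thinning the shares were 95.9% and 89.7% in mesenchymal-like cells, where the median cell had 12479 and 9564 UMIs, and 6.56% and 3.18% in erythroid-like cells, at 18351 and 13171 UMIs.

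Spon1 had another distribution, low in mesenchyme and higher in the lining and covering layers of the heart. Its control level was 141 CPM (interval 131 to 153) in the Klf2-rich cluster, 109 CPM (interval 95.4 to 124) in endothelial-like and 104 CPM (interval 99.3 to 109.8) in epicardial-like cells, and the intervals of the last 2 overlapped. Cardiomyocyte-like cells held 46.6 CPM and mesenchymal-like cells 11.3 CPM. In H2CKO the Klf2-rich cluster still led with 78.0 CPM (interval 68.5 to 88.5), followed by epicardial-like cells with 35.7 CPM and cardiomyocyte-like cells with 33.6 CPM, whose intervals overlapped. Endothelial-like cells had moved down the order to 5.45 CPM (interval 3.77 to 7.61), within the interval of the 5.80 CPM of mesenchymal-like cells. Cardiomyocyte-like cells were 29.3% of kept cells in the control and 31.8% in H2CKO. They held 47.6% of the library's Spon1 UMIs in the control and 78.4% in H2CKO.

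In the control, Tnc and Thbs1 were highest in mesenchymal-like cells and then in the Klf2-rich cluster among the 7 classes, and both were scarce in endothelial-like cells. Tnc stood at 73.7 CPM (interval 70.3 to 77.3) in control mesenchymal-like cells, 37.7 CPM (interval 32.3 to 43.7) in the Klf2-rich cluster and 0.483 CPM (interval 0.0122 to 2.69) in endothelial-like cells, the last from 1 UMI, no higher than the 1.11 CPM of erythroid-like cells. In H2CKO, Tnc stood at 27.7, 3.87 and 1.76 CPM in those classes, and the last 2 overlapped. Thbs1 had 288 CPM (interval 282 to 295) in mesenchymal-like cells, 265 CPM (interval 251 to 281) in the Klf2-rich cluster and 210.2 CPM (interval 187 to 236) in white blood cell-like cells, and 19.8 CPM in endothelial-like cells. In H2CKO the order was the same for Thbs1, with 139, 123 and 50.8 CPM, the first 2 overlapping. Sparc, the collagen-binding member, stood above the erythroid-like level in every other class. It stood highest in epicardial-like cells, 2605 CPM (interval 2579 to 2631) in the control and 2427 CPM (interval 2375 to 2479) in H2CKO, then in mesenchymal-like cells, 1499 and 1456 CPM. The lowest Sparc level outside blood was that of endothelial-like cells in the control (474 CPM) and of cardiomyocyte-like cells in H2CKO (564 CPM).

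Fn1 led in endothelium. In the control it reached 2159.9 CPM (interval 2097 to 2224) in endothelial-like cells, 1534 CPM (interval 1499 to 1570.4) in the Klf2-rich cluster, 1211 CPM (interval 1193 to 1229) in epicardial-like and 701 CPM (interval 690.3 to 712) in mesenchymal-like cells, and no 2 of these intervals overlapped. In H2CKO the Klf2-rich cluster came first with 1139 CPM (interval 1102 to 1177), ahead of endothelial-like cells with 819 CPM (interval 797 to 842), and the rest kept their places. Cardiomyocyte-like cells had 86.7 and 32.7 CPM, beside 29.9 and 12.2 CPM in erythroid-like cells.

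Each of the fibulins and elastic-fibre members was found in several classes. Fbln1 was spread over all classes outside blood, from 32.9 CPM in endothelial-like to 138 CPM in mesenchymal-like control cells, and from 30.8 to 147 CPM between the same classes in H2CKO. Fbln2 was shared by epicardial-like cells, 457 CPM (interval 446 to 468), and mesenchymal-like cells, 454 CPM (interval 445 to 463), whose control intervals overlapped, with 344 CPM in the Klf2-rich cluster and 16.4 CPM in endothelial-like cells. Eln stood highest in the Klf2-rich cluster among the 7 classes, with 236 CPM (interval 222 to 249.99) in the control and 112 CPM (interval 101 to 125) in H2CKO, against 27.3 and 8.52 CPM in mesenchymal-like cells and 2.42 and 1.28 CPM in endothelial-like cells. Emilin1 was spread over the Klf2-rich cluster (133 CPM), mesenchymal-like cells (121 CPM) and endothelial-like cells (94.7 CPM) in the control, and the first 2 intervals overlapped. In H2CKO those classes held 80.9, 96.1 and 57.2 CPM, and epicardial-like cells 65.0 CPM, each overlapping its neighbour in the order.

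**Figure D1:**
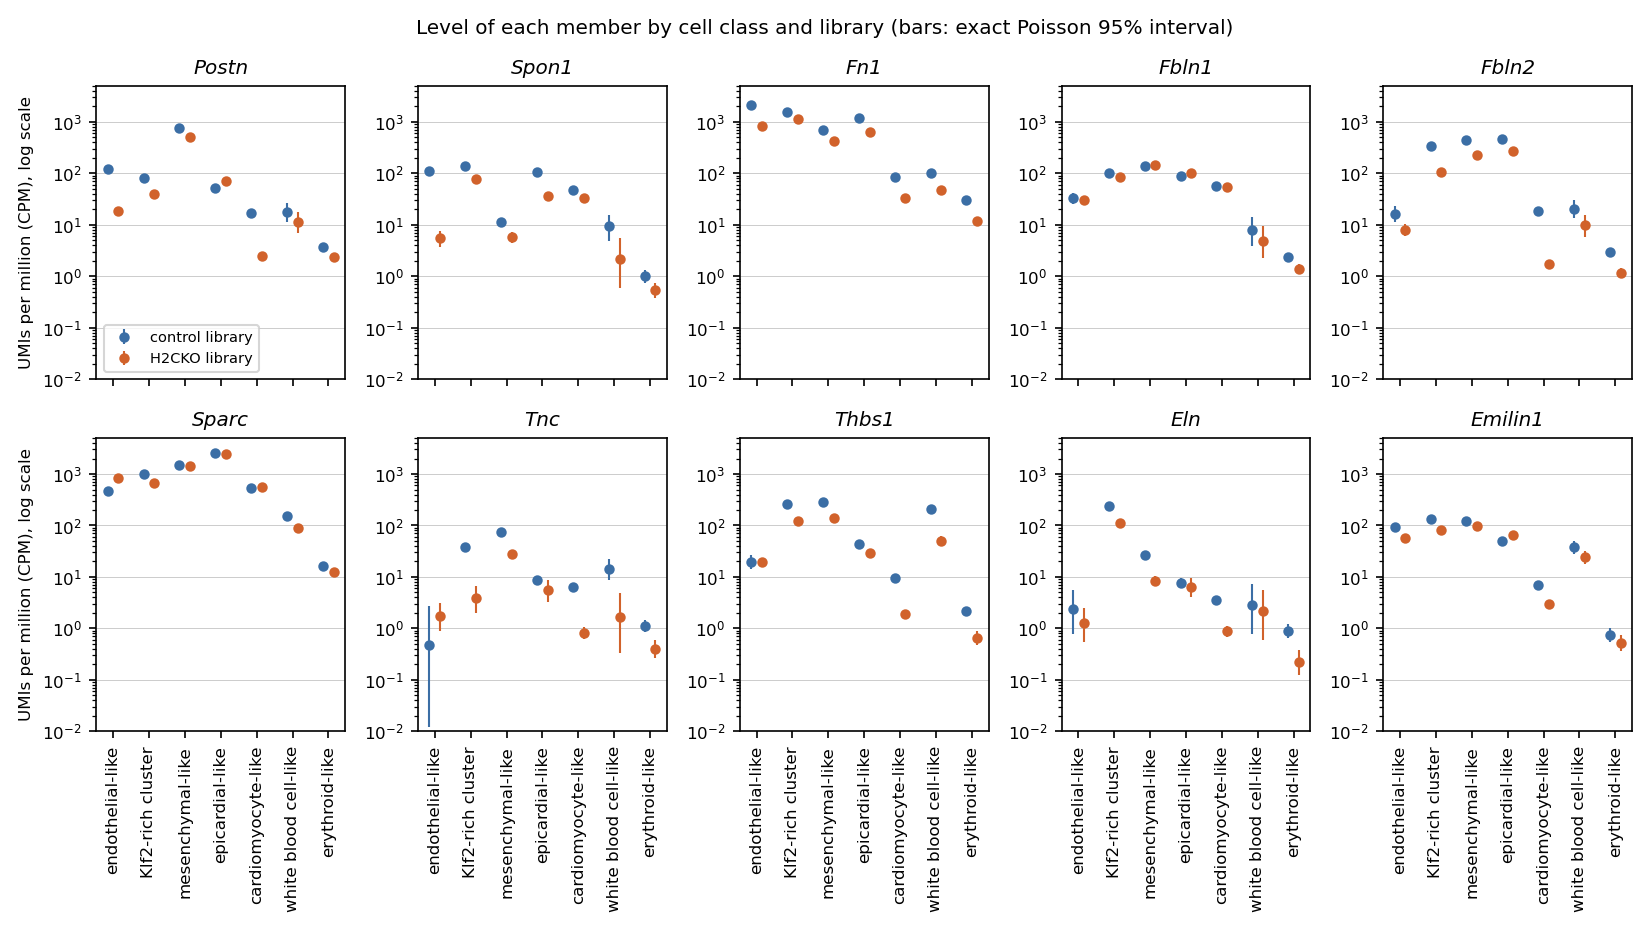
Level of each of the 10 members in CPM (log axis) in 7 cell classes, for the control (blue) and H2CKO (orange) libraries; points are sums over the cells of 1 library and bars are exact Poisson 95% intervals. Postn stands highest in mesenchymal-like cells in both libraries, Eln in the Klf2-rich cluster and Sparc in epicardial-like cells, and every member is low in erythroid-like cells.

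With 5 CPM added to each level, the 2 endothelial clusters differed by 2-fold or more in both libraries in Eln, Fbln2, Thbs1 and Fbln1, in the control in Tnc and Sparc, and in H2CKO in Spon1; the ratios below are of the CPM as measured. Eln in the Klf2-rich cluster was 97.5 times (41.7 to 301) its endothelial-like level in the control and 87.5 times (43.9 to 204) in H2CKO. Fbln2 was 21.0 times (14.9 to 30.4) and 13.3 times (9.87 to 18.3), and Thbs1 13.4 times (9.82 to 18.8) and 6.28 times (5.11 to 7.77). Fbln1 was 3.14 times (2.43 to 4.11) and 2.80 times (2.32 to 3.39) its endothelial-like level. Spon1 was 1.29 times (1.11 to 1.51) in the control and 14.3 times (9.98 to 21.2) in H2CKO. Tnc was 78.0 times (13.8 to 3099) in the control, where endothelial-like cells had 1 UMI, and 2.20 times (0.887 to 5.49) in H2CKO. For 3 members the direction turned between the libraries. Fn1 was 0.710 times (0.684 to 0.738) in the control, lower in the Klf2-rich cluster, and 1.39 times (1.33 to 1.45) in H2CKO, higher there. Postn turned the same way, from 0.669 times (0.570 to 0.787) to 2.19 times (1.69 to 2.84), and Sparc the other way, from 2.07 times (1.93 to 2.22) to 0.798 times (0.758 to 0.840). Emilin1 was 1.41 times (1.20 to 1.66) and 1.41 times (1.20 to 1.67). Past 2-fold either way between the 2 clusters lay 10.5% of 6803 genes compared in the control and 8.96% of 6014 in H2CKO.

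Between the genotypes, 2-fold is used below as the size of a difference that is counted, as a log2 ratio of 1 or more on the scale of CPM + 5, among genes with at least 20 CPM and 20 UMIs in the higher library; the log2 ratios given are on that scale, and with 1 library per genotype none carries a test. In endothelial-like cells 6 of the 10 members reached that level, 3 of them lower in H2CKO by 2-fold and 0 higher, where 7.92% of 6290 genes were lower and 1.43% higher by 2-fold. Since the members were named with this contrast known, nothing is read from that count. Periostin transcripts came from 255 UMIs in the control and 116 in H2CKO, so 123 CPM (interval 109 to 139) stood against 18.6 CPM (interval 15.4 to 22.3), a log2 ratio of −2.44. F-spondin transcripts came from 226 and 34 UMIs, and the log2 ratio was −3.45, rank 4 from the lowest of the 6290 genes compared. Fibronectin went from 2159.9 CPM (interval 2097 to 2224) to 819 CPM (interval 797 to 842), a log2 ratio of −1.39. Sparc went the other way, 474 CPM (interval 444 to 504) against 835 CPM (interval 812 to 858), a log2 ratio of 0.81 that stayed under 2-fold, and the libraries' intervals did not overlap. Emilin1 had 94.7 and 57.2 CPM and Fbln1 32.9 and 30.8 CPM, log2 ratios of −0.68 and −0.08. Fbln2, Tnc, Thbs1 and Eln were under 20 CPM in both libraries here. Genes of longer span were lower in H2CKO across all genes compared in this class (Spearman rho = −0.447), and with that trend taken out Fn1 gave −0.85, no longer past 2-fold, while Postn gave −2.11 and Spon1 −2.89.

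Several marker lists moved with these values in endothelial-like cells. The 5 endocardial markers (Npr3, Nfatc1, Adgrg6, Cgnl1 and Nrg1) summed to 1256 CPM in the control and 350.0 CPM in H2CKO, with all 5 below the control. The 8 vascular markers summed to 253 CPM in the control and 471 CPM in H2CKO, but were split, 3 higher by 2-fold and 3 below the control. The 12 mesenchymal markers summed to 639 CPM in the control and 180.2 CPM in H2CKO, with 10 of 12 below the control and 3 by 2-fold. The highest of these 12 alone held 508 CPM in the control. The part of these lists in the differences of Postn, Spon1 and Fn1 was not tested. Among the 21 control and 30 H2CKO endothelial-like cells with no UMI of a vascular marker, the log2 ratio was −2.13 for Postn, −0.99 for Spon1, −0.93 for Fn1 and 1.16 for Sparc, so Spon1 and Fn1 no longer passed 2-fold and Sparc did. With the cells of both endothelial clusters summed, Postn gave −1.69, Spon1 −1.98, Fn1 −0.90 and Sparc −0.08, while Fbln2 gave −2.44, Tnc −2.07, Thbs1 −1.73 and Eln −1.97. The Klf2-rich cluster, where Fbln2, Thbs1 and Eln stood higher than in endothelial-like cells in both libraries and Tnc in the control, made up 67.7% of the summed endothelial cells in the control and 34.8% in H2CKO.

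In the Klf2-rich cluster all 10 members reached 20 CPM and were compared. Of these, 4 were lower by 2-fold (background 3.28% of 6584 genes), Fbln2, Tnc, Thbs1 and Eln, which could not be compared in endothelial-like cells, and 0 were higher (background 0.532%). Tenascin-C was the most unequal, with 176 control and 12 H2CKO UMIs, 37.7 CPM (interval 32.3 to 43.7) against 3.87 CPM (interval 1.999 to 6.76), and a log2 ratio of −2.27. Fibulin-2 had 344 CPM (interval 328 to 362) against 107 CPM (interval 95.5 to 119), a log2 ratio of −1.65. Thrombospondin-1 and elastin lay near the 2-fold line at −1.08 and −1.04. Postn, with 385 and 126 UMIs, and Spon1, with 660 and 242 UMIs, lay just inside it at −0.94 and −0.82. Sparc, higher in the H2CKO endothelial-like cells, was lower here, 980.3 CPM (interval 952 to 1009) against 667 CPM (interval 638 to 696), a log2 ratio of −0.55. The 12 mesenchymal markers summed to 1285 CPM in the control and 492 CPM in H2CKO in this cluster, with 7 of 12 lower by 2-fold, and the 5 endocardial markers to 739.7 CPM in the control and 400.3 CPM in H2CKO. The 10 epicardial markers summed to 118 CPM in the control and 50.3 CPM in H2CKO, the 12 cardiomyocyte markers to 1858 CPM in the control and 1222 CPM in H2CKO, and the 12 erythroid markers, which went the other way, to 17776 CPM in the control and 48746 CPM in H2CKO. The part of these lists in the members' values was not tested. Over the median gene, whose log2 ratio was −0.22, only Fbln2 and Tnc remained past 2-fold, at −1.43 and −2.05. With the trend over gene span taken out, the same pair passed it, at −1.21 and −1.80, and Thbs1 and Eln gave −0.98 and −0.66.

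In mesenchymal-like cells 9 members were compared, and 4 were lower in H2CKO by 2-fold (background 3.18% of 6532 genes) with 0 higher (background 0.383%). These were Tnc, 73.7 CPM (interval 70.3 to 77.3) against 27.7 CPM (interval 24.7 to 31.0) and a log2 ratio of −1.27; Eln, 27.3 CPM (interval 25.2 to 29.4) against 8.52 CPM (interval 6.89 to 10.4) and −1.25; Thbs1, 288 CPM (interval 282 to 295) against 139 CPM (interval 132 to 146) and −1.03; and Fbln2, 454 CPM (interval 445 to 463) against 224 CPM (interval 215 to 233) and −1.002. The 4 genes past 2-fold here were those past 2-fold in the Klf2-rich cluster, but after the median gene of each class the pairs past it differed, Fbln2 and Tnc there and Tnc (−1.04) and Eln (−1.03) here. Postn differed by less, −0.57, as did Fn1 at −0.69 and Emilin1 at −0.32. Sparc had 1499 CPM (interval 1483 to 1515) against 1456 CPM (interval 1434 to 1479) and Fbln1 138 CPM (interval 133 to 142) against 147 CPM (interval 139.7 to 154), log2 ratios of −0.04 and 0.09. All 4 lower members lie close to the line: they were at or below −1 in 16 of 17 alternative settings for Tnc, 13 for Eln, 13 for Thbs1 and 9 for Fbln2, and below 0 in all 17 for each. Across all genes compared in this class, genes of longer span were lower in H2CKO (Spearman rho = −0.555, a description over genes, which are not replicates). With that trend taken out, none of the 4 passed 2-fold: Tnc gave −0.70, Eln −0.84, Thbs1 −0.93 and Fbln2 −0.51. The mesenchymal marker list also stood lower in this class, at 4424 CPM in the control and 2364 CPM in H2CKO, with all 12 markers below the control and 4 by 2-fold. The 5 endocardial markers summed to 229 CPM in the control and 123 CPM in H2CKO, with all 5 below the control, and the part of both lists in these values was not tested. The 12 erythroid markers, haemoglobins among them, went the other way, 12958 CPM in the control and 50157 CPM in H2CKO. With haemoglobin and mitochondrial UMIs left out of the totals, Fbln2 gave −0.93 and Thbs1 −0.96, inside 2-fold, and Tnc and Eln −1.21 and −1.22. With each cell named by its own markers Eln gave −0.15.

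Epicardial-like cells showed 1 member of 8 compared lower by 2-fold (background 4.69% of 6273 genes) and 0 higher (background 0.367%). It was Spon1, 1518 UMIs in the control and 123 in H2CKO, 104 CPM (interval 99.3 to 109.8) against 35.7 CPM (interval 29.7 to 42.6), a log2 ratio of −1.43, or −0.79 with the trend over gene span taken out. Fn1 lay at −0.94 and Fbln2 at −0.70. Postn and Emilin1 were higher in H2CKO by less than 2-fold, 0.40 and 0.36, and the direction of both turned with the cells used. In the cells of the deposited embedding Postn gave −1.04 and Emilin1 −0.12, and with cells named by their own markers Postn gave −0.18; Postn was below 0 in 5 and Emilin1 in 3 of 18 alternatives. Within the deeper Upk3b-rich cluster of this class, Postn had 21.7 and 22.9 CPM, and within the Tcf21-rich cluster 159 and 149 CPM, so the class-wide Postn difference was not found inside either. The Upk3b-rich cluster held 688 of the 1176 control cells and 200 of the 350 H2CKO cells of the class, and the Tcf21-rich one 156 and 103, the rest being shallow cells. Spon1 was lower inside both, 121 and 42.5 CPM in the first and 54.5 and 22.7 CPM in the second. In the shallow cluster Spon1 had 23.1 and 54.1 CPM from 17 and 4 UMIs, with a ratio interval of 0.574 to 7.19 that covers 1. In epicardial-like cells the 10 epicardial markers summed to 2679 CPM in the control and 2034 CPM in H2CKO, with 8 of 10 below the control. The 12 mesenchymal markers summed to 2244 CPM in the control and 1539 CPM in H2CKO, with only 6 of 12 below the control and 1 by 2-fold. The 5 endocardial markers summed to 303 CPM in the control and 134 CPM in H2CKO, with 4 of 5 below the control. The 12 erythroid markers in this class summed to 17800.4 CPM in the control and 42809.6 CPM in H2CKO, with 5 of 12 higher by 2-fold. The 5 megakaryocyte markers summed to 6.54 CPM in the control and 46.4 CPM in H2CKO, with only 1 of 5 higher by 2-fold. The part of all these lists in the members' values was not tested. In cardiomyocyte-like cells 4 members were compared and 1, Fn1, was lower by 2-fold (background 0.633% of 5532 genes), 86.7 CPM (interval 84.3 to 89.1) against 32.7 CPM (interval 31.4 to 34.1), with 0 higher (background 0.217%). Spon1 stood at 46.6 and 33.6 CPM, Fbln1 at 55.8 and 54.6 CPM and Sparc at 533 and 564 CPM there. The other 6 were under 20 CPM in cardiomyocyte-like cells, among them Fbln2, 18.6 and 1.71 CPM, and Postn, 16.7 and 2.48 CPM. With Scrublet's automatic doublet threshold, which removed cells from the control library only, their log2 ratios went from −1.82 to −0.54 and from −1.54 to −0.43, and that of Fn1 from −1.28 to −0.44. The 12 mesenchymal markers in cardiomyocyte-like cells summed to 212 CPM in the control and 134 CPM in H2CKO, with 6 of 12 lower by 2-fold, and the 12 endothelial markers to 34.6 CPM in the control and 18.4 CPM in H2CKO. There the 12 erythroid markers summed to 16062 CPM in the control and 21679.7 CPM in H2CKO, with 1 of 12 higher by 2-fold and 5 below the control. The 12 white blood cell markers summed to 9.83 CPM in the control and 50.7 CPM in H2CKO, with only 1 of 12 higher by 2-fold and 2 below the control. The erythroid-like level, the estimate of free RNA, also stood lower in H2CKO for all 10 members, for example 29.9 and 12.2 CPM of Fn1. The part of these lists and of free RNA in the cardiomyocyte values was not tested. Within the Ryr2-rich and the Nppa-rich clusters of this class, Fn1 had 113 and 34.3 CPM and 44.7 and 23.5 CPM, and in the shallow cluster 43.3 and 50.7 CPM from 135 and 46 UMIs, where the intervals overlapped. With the erythroid-like level subtracted, Fn1 in cardiomyocyte-like cells had a log2 ratio of −1.27. Among white blood cell-like cells there were 2 of 5 members compared lower by 2-fold (background 8.33% of 5990 genes) and 0 higher (background 1.3%), Thbs1, 294 against 93 UMIs and a log2 ratio of −1.95, and Fn1, −1.05, from 79 and 112 cells. After the median gene Fn1 stood at −0.82. A Thbs1 UMI was seen in 29.1% of these control cells and 11.6% of those of H2CKO. The class is mixed: at resolution 2 its cells went to a megakaryocyte-like cluster (43 of the 79 control and 71 of the 112 H2CKO cells) and a white blood cell-like one (36 and 41), and the part of this mixture in the Thbs1 and Fn1 values was not tested.

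**Figure D2:**
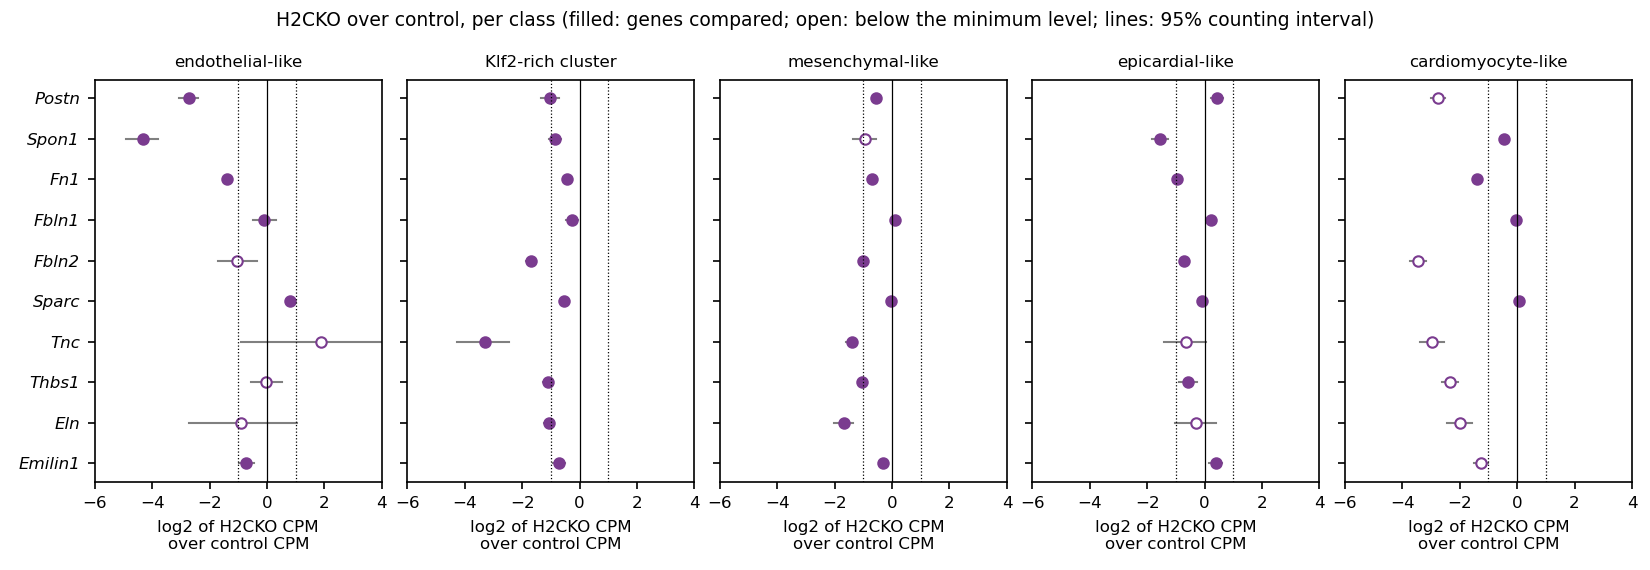
Log2 of the CPM in H2CKO over the CPM in the control, without the added 5 CPM, for each member in 5 cell classes; filled points are genes compared, open points are under 20 CPM or 20 UMIs, lines are exact 95% counting intervals and dotted lines mark 2-fold. Within the endothelial-like panel Postn, Spon1 and Fn1 lie farthest left, and within the Klf2-rich panel Tnc and Fbln2. In cardiomyocyte-like cells Postn and Fn1 lie about as far left, and Fbln2 farther left than in the Klf2-rich cluster. Fbln1 and Sparc lie near 0 in mesenchymal-like and cardiomyocyte-like cells.

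Mesenchymal-like cells were 2 clusters, one rich in Twist1, Sox9 and Hapln1 (929 control and 645 H2CKO cells) and one rich in Meox1, Tgfbi and Papss2 (696 and 409 cells). Tenascin-C separated them most among the members, with 31.4 CPM (interval 28.4 to 34.6) and 123 CPM (interval 117 to 129.9) in the control and 4.48 CPM (interval 3.00 to 6.44) and 60.7 CPM (interval 53.8 to 68.3) in H2CKO (Twist1-rich, then Meox1-rich). The Meox1-rich level was 3.92 (3.50 to 4.40) times the Twist1-rich one in the control and 13.5 (9.22 to 20.6) times in H2CKO, where 2-fold either way was passed by 2.2% and 3.38% of genes compared. Postn was also higher in the Meox1-rich cluster, 1.44 (1.40 to 1.49) and 1.69 (1.61 to 1.79) times, and Fbln1 lower, 0.631 (0.586 to 0.678) and 0.630 (0.566 to 0.701) times. The genotype difference of Tnc was a log2 ratio of −1.94 in the Twist1-rich and −0.96 in the Meox1-rich cluster, from 399 and 29 UMIs in the first and 1340 and 277 in the second. Eln differed by −1.65 and −0.73, Fbln2 by −1.24 and −0.72, and Thbs1 by −0.92 and −1.13 in the same order. Sparc differed by −0.0046 and −0.04 and Fbln1 by 0.06 and 0.06. Whether the Tnc difference between genotypes differs between the 2 clusters was not tested.

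The 2 other unnamed clusters outside the endothelium held much of the Eln and Tnc. The smaller, led by Iigp1, Rgs5, Mgp and Fbln5 with 39 control and 76 H2CKO cells, had 934 CPM (interval 826 to 1053) of Eln in the control and 564 CPM (interval 498 to 637) in H2CKO, 187 and 25.6 CPM of Tnc and 640.1 and 306 CPM of Fbln2. Its 54 control and 12 H2CKO Tnc UMIs give a log2 ratio of −2.65. Of all Eln UMIs in kept cells, 8.99% in the control and 24.8% in H2CKO were in it. The other, led by Rspo3, Sema3c, Bmp4 and Isl1 (376 and 450 cells), held 35.5% and 53.1% of all Tnc UMIs, at 139 CPM (interval 132 to 146) and 65.3 CPM (interval 59.7 to 71.2). Postn in that cluster went from 352 UMIs, 35.1 CPM (interval 31.5 to 39.0), to 13 UMIs, 1.67 CPM (interval 0.891 to 2.86), a log2 ratio of −2.59, and Fbln2 from 30.3 to 2.96 CPM. Its H2CKO Postn level is no higher than the 2.36 CPM of erythroid-like cells. Among cardiomyocyte-like cells, Spon1 was highest in the Bmp2- and Tbx3-rich cluster, at 217 CPM (interval 198 to 237) in 104 control and 141 CPM (interval 127 to 155) in 179 H2CKO cells, against 40.5 and 29.5 CPM in the Ryr2-rich cluster.

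**Figure D3:**
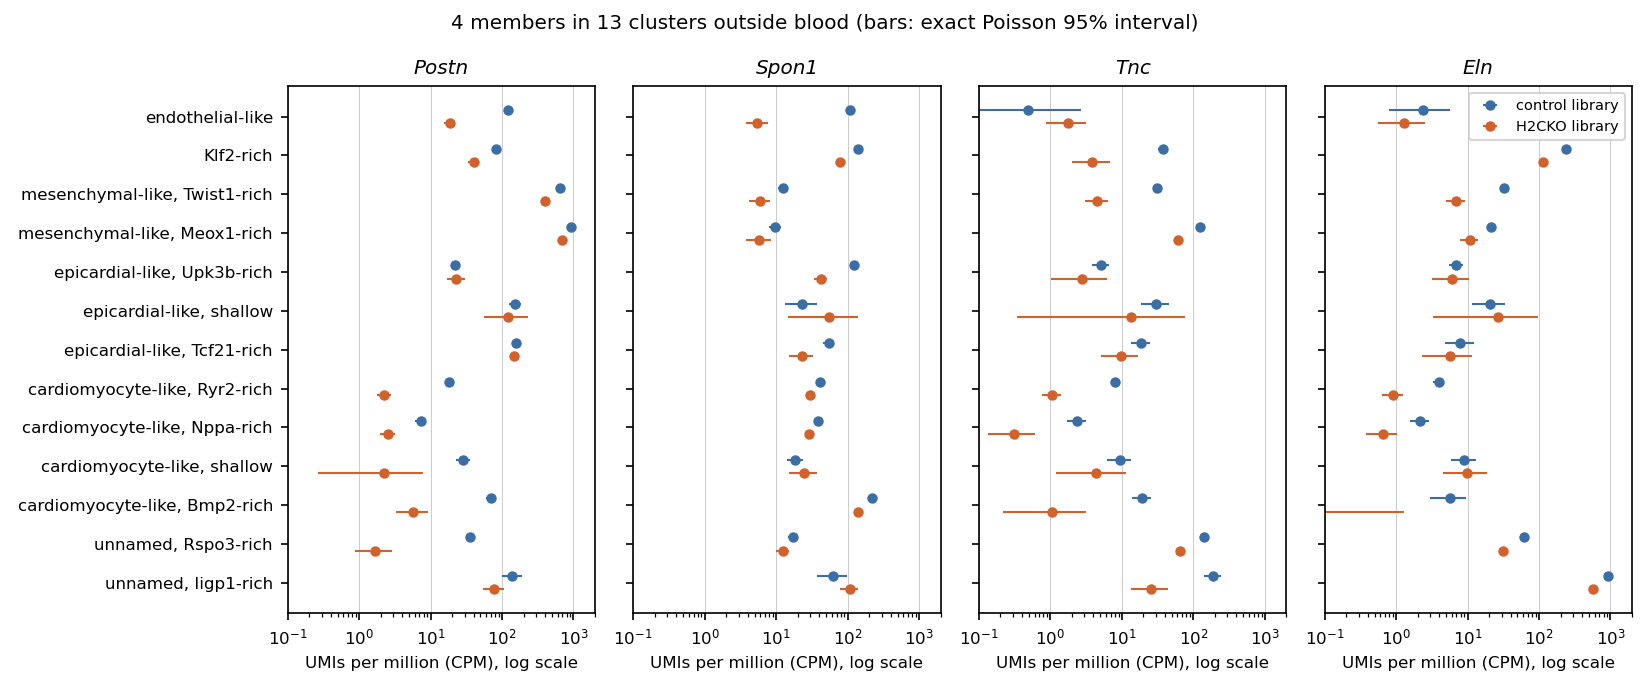
CPM (log axis) of Postn, Spon1, Tnc and Eln in 13 clusters outside blood, control (blue) and H2CKO (orange), with exact Poisson 95% intervals; a level of 0 or an interval end under 0.1 CPM lies off the axis. Eln stands highest in the Iigp1-rich cluster, Tnc in the Iigp1-rich, Rspo3-rich and Meox1-rich clusters, Postn in both mesenchymal-like clusters and Spon1 in the Bmp2-rich cardiomyocyte-like cluster of both libraries.

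Cells in which Cre had acted carry the GFP transcript, and within the H2CKO library cells with a GFP UMI were set against the other cells of their class. A single GFP UMI was partly background, since the control library, with no Cre listed, had one in 19.2% of endothelial-like, 22.8% of Klf2-rich and 17.7% of mesenchymal-like cells, beside 61.0%, 87.2% and 38.0% in H2CKO. Cells without a GFP UMI may also be recombined, as detection depends on depth, so the 2 sides are mixed, and as both come from 1 library only values are given. In endothelial-like cells (295 with GFP and 189 without) no member compared passed 2-fold, and of 5498 genes 0.0182% were higher and 0% lower by that size. Postn had 20.7 CPM from 85 UMIs in GFP-detected cells and 14.5 CPM from 31 UMIs in the others, Spon1 4.62 CPM from 19 UMIs in GFP-detected cells and 7.03 CPM from 15 UMIs in the others, and Fn1 870.0 and 722 CPM. Both subsets lay under the control level of 123 CPM for Postn and 109 CPM for Spon1. In the Klf2-rich cluster only 33 cells lacked GFP, beside 225 with it, and their median depths were 6712 and 9682 UMIs. Postn there had 42.6 CPM from 122 UMIs in GFP-detected cells and 16.9 CPM from 4 UMIs in the others, the 1 member past 2-fold, with a ratio interval of 0.958 to 9.39 that covers 1, where 9.43% of genes were higher and 0.687% lower in GFP-detected cells by 2-fold. Over all mesenchymal-like cells Tnc was lower with GFP, 12.2 CPM from 51 UMIs in GFP-detected cells and 37.2 CPM from 255 UMIs in the others, and 0.403% of genes were lower and 0.0701% higher by 2-fold. The GFP-detected cells were unevenly divided, 349 of 645 in the Twist1-rich and 52 of 409 in the Meox1-rich cluster, where Tnc is higher. In the Twist1-rich cluster these are 54.1% of H2CKO cells, against 19.1% of control cells with a GFP UMI. In the Meox1-rich cluster they are 12.7% against 15.8% in the control, no more than background, so members split by GFP are not described for that cluster alone, although its cells are part of the comparison over all mesenchymal-like cells. Within the Twist1-rich cluster Tnc had 4.83 CPM with GFP and 4.07 CPM without, from 17 and 12 UMIs and so under the minimum level, with a ratio interval of 0.534 to 2.72. No member compared passed 2-fold there, where 0.0177% of genes were lower and 0.0177% higher by that size. Hand2, for comparison, had 7.39 CPM with GFP and 24.1 CPM without in this cluster.

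**Figure D4:**
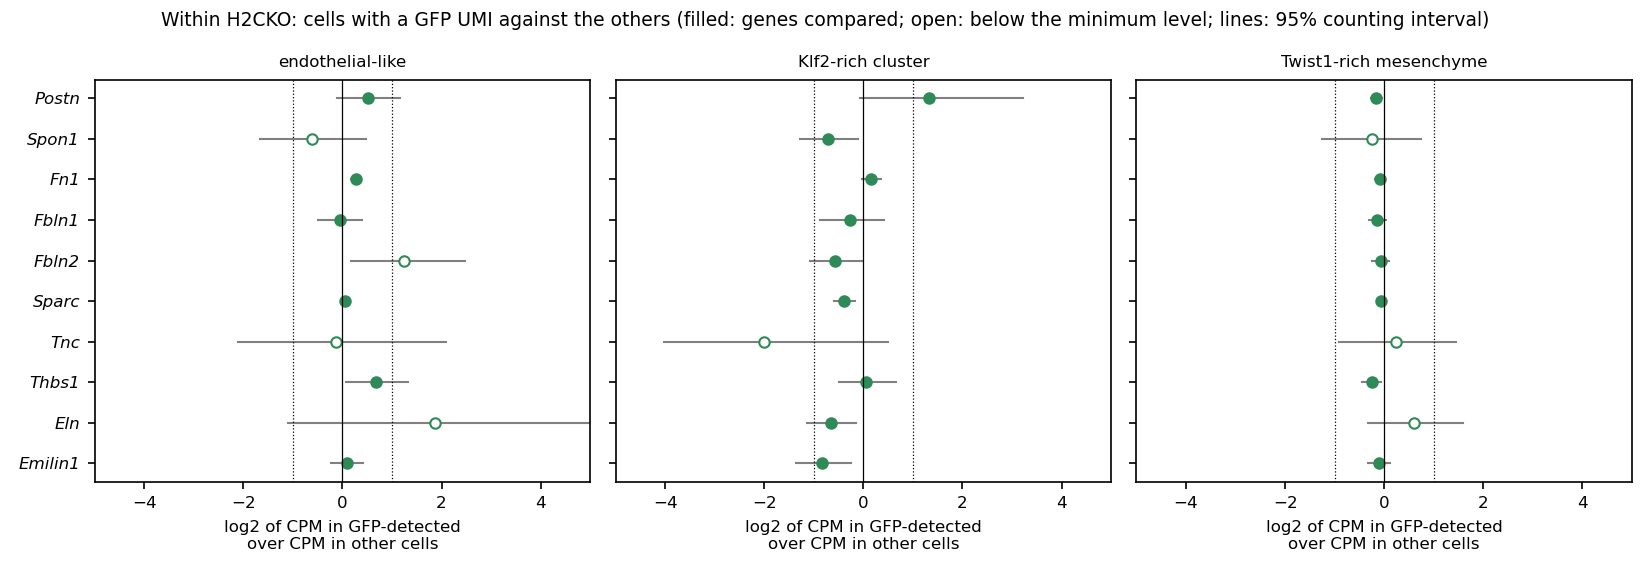
Log2 of the CPM in H2CKO cells with a GFP UMI over the CPM in the other H2CKO cells of the same cluster, per member, without the added 5 CPM; filled points are genes compared, open points are under the minimum level, lines are exact 95% counting intervals and dotted lines mark 2-fold. In endothelial-like cells and Twist1-rich mesenchyme all filled points lie inside the dotted lines.

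The members were read beside 3 lists of related genes, which were likewise drawn up with results of these data known. Of the 22 other matricellular genes, 4 could be compared in endothelial-like and 5 in mesenchymal-like cells, and 0 and 0 were lower and 0 and 0 higher by 2-fold. Their median log2 ratio was 0.37 and 0.16, beside −0.24 and −0.23 over all genes compared and −1.04 and −0.69 over the members compared. The highest of them in mesenchymal-like cells were Tgfbi, a paralogue of periostin, with 453 CPM in the control and 289.9 CPM in H2CKO (log2 ratio −0.64), Ccn1 with 213 CPM in the control and 253 CPM in H2CKO (0.25) and Ccn2 with 118 CPM in the control and 119 CPM in H2CKO (0.01). Of the 23 other elastic-fibre and microfibril genes, 3 of 10 compared were lower by 2-fold and 1 higher in endothelial-like cells (all genes 7.92% and 1.43%), and 1 of 11 lower and 0 higher in mesenchymal-like cells (all genes 3.18% and 0.383%). The median log2 ratio of this list was −0.50 and −0.47 in the 2 classes. In endothelial-like cells these were the microfibril genes Mfap2, 254 CPM in the control and 88.7 CPM in H2CKO (−1.47), and Fbn2, 139.7 CPM in the control and 56.4 CPM in H2CKO (−1.24), and Ltbp1, a binder of latent TGF-beta, 90.9 CPM in the control and 25.8 CPM in H2CKO (−1.64). Mmrn1 was the higher one, 7.25 CPM in the control and 20.7 CPM in H2CKO (1.07), from 15 and 129 UMIs. Fbn1, the other main fibrillin gene, had 223 CPM in the control and 156 CPM in H2CKO (−0.50). In mesenchymal-like cells the 3 highest were Mfap2, 517 CPM in the control and 399 CPM in H2CKO (−0.37), the lysyl oxidase gene Loxl2, 505 CPM in the control and 248 CPM in H2CKO (−1.01), the one past 2-fold, and Fbn2, 383 CPM in the control and 253 CPM in H2CKO (−0.59).

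Receptors bind several of these proteins at the cell surface. Of the 12 in the receptor list, 3 of 7 compared were lower by 2-fold in endothelial-like cells (all genes 7.92%), and 2 of 8 compared in mesenchymal-like cells (all genes 3.18%), with 0 and 0 higher. In endothelial-like cells they were Itga9, an integrin subunit that binds tenascin-C, 123 CPM in the control and 28.5 CPM in H2CKO (−1.94), Itga4, 24.2 CPM in the control and 2.56 CPM in H2CKO (−1.95), and Itgav, 26.6 CPM in the control and 8.65 CPM in H2CKO (−1.21). In mesenchymal-like cells they were Itga4, 294 CPM in the control and 116 CPM in H2CKO (−1.30), and Itgb1, the common beta subunit, 825 CPM in the control and 400.4 CPM in H2CKO (−1.03). Itgb5, next after these in level in that class, had 110.0 CPM in the control and 91.4 CPM in H2CKO (−0.25). In the Klf2-rich cluster 1 of 6 other matricellular genes compared (Tgfbi), 2 of 10 elastic-fibre genes (Loxl2 and Ltbp1) and 2 of 9 receptors (Itgb1 and Itga4) were lower by 2-fold (all genes 3.28%), with 0, 0 and 0 higher. No test of a list was made. The median of the receptor list was −0.78 in endothelial-like and −0.72 in mesenchymal-like cells.

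**Figure D5:**
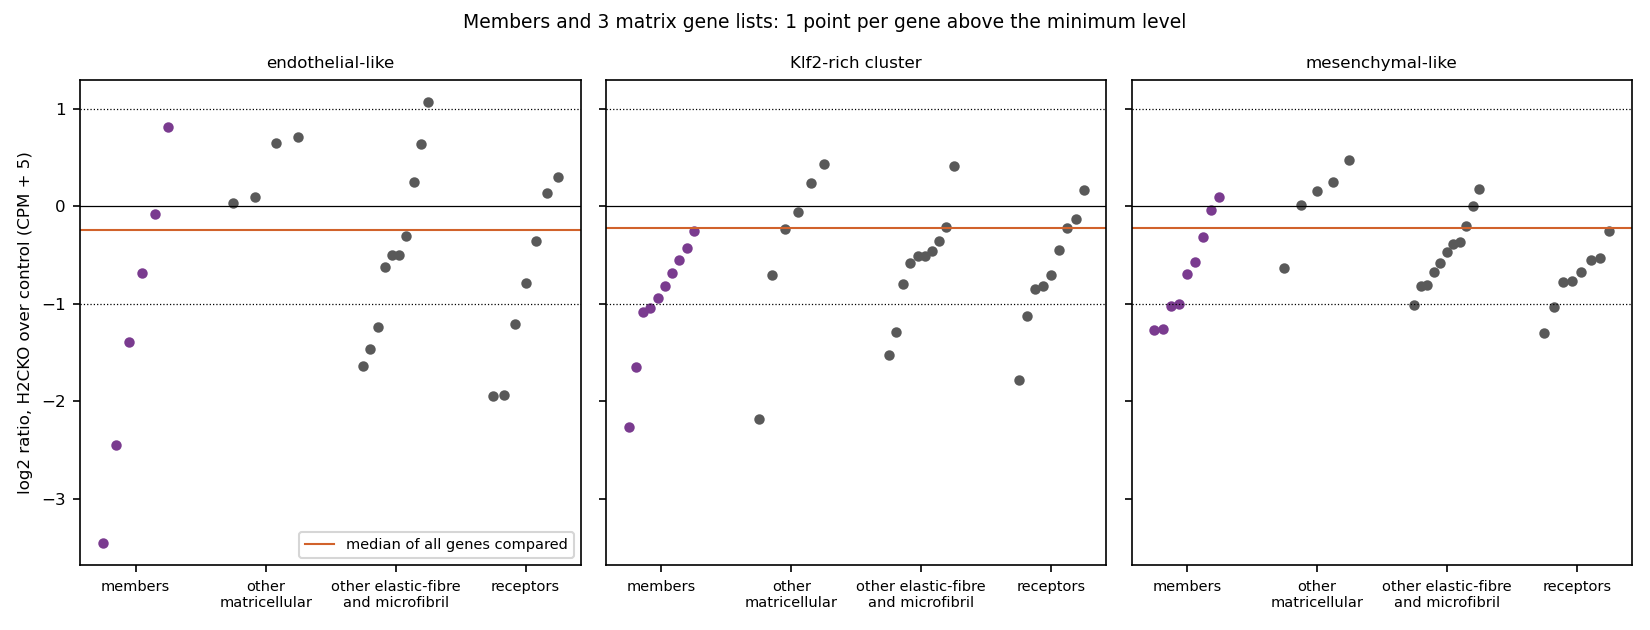
Log2 ratio of H2CKO over control on the scale of CPM + 5 for the members (purple) and the genes of 3 matrix lists (grey), 1 point per gene that reached 20 CPM and 20 UMIs, in 3 cell classes; the orange line is the median of all genes compared and dotted lines mark 2-fold. In endothelial-like cells the members run from −3.45 to 0.81, and the 4 other matricellular genes all lie above 0.

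Members were found together in the same cells to different extents. In cells thinned to 5000 UMIs, the median number of the 10 members detected per cell was 6 in control and 5 in H2CKO mesenchymal-like cells, 5 and 4 in the Klf2-rich cluster, 3 and 2 in endothelial-like cells and 0 in erythroid-like cells of both libraries. The share of cells with 5 or more members was 81.8% and 57.2% in mesenchymal-like cells, 63.9% and 39.7% in the Klf2-rich cluster and 15.4% and 1.32% in endothelial-like cells. Cells shallower than 5000 UMIs were left out, 49 control and 56 H2CKO cells of the mesenchymal-like, 17 and 29 of the Klf2-rich and 13 and 29 of the endothelial-like cells.

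Patterns across clusters were compared by Pearson's r of log2(CPM + 5) over 34 points, 17 clusters with at least 50 cells in each library, among 8947 genes that reached 20 CPM; clusters of 1 library share its preparation, so r is a description. Postn was most like Twist1 (r = 0.966), Cthrc1 (r = 0.939) and Sox5 (r = 0.939), of which Twist1 is a transcription factor of cushion mesenchyme. Fbln2 was most like Sox9 (r = 0.973), Myof (r = 0.969) and Rai14 (r = 0.953); Sox9 is the transcription factor of cartilage and valve precursors. Fn1 went with Col5a2 (r = 0.977), Col18a1 (r = 0.975) and Dbn1 (r = 0.956), the first 2 collagen genes, and Sparc with Serpinh1 (r = 0.991), Copz2 (r = 0.987) and Cnn3 (r = 0.986), the first the gene of a collagen chaperone. Tnc was closest to Crabp1 (r = 0.887), Rgs5 (r = 0.833) and Fstl3 (r = 0.830), and Eln to Ntn4 (r = 0.916), Fgfr3 (r = 0.874) and Ifitm10 (r = 0.848). Spon1 had as its nearest Tmem108 (r = 0.884), Bcr (r = 0.874) and Sh3bp4 (r = 0.874), Thbs1 Arid5a (r = 0.946), Fosb (r = 0.939) and Ap3s1 (r = 0.937), Fbln1 Pard6g (r = 0.967), Fndc4 (r = 0.964) and Ccn1 (r = 0.957) and Emilin1 Tagln2 (r = 0.980), Lima1 (r = 0.970) and Tgif1 (r = 0.969). Among the members themselves r ran from 0.222 between Spon1 and Tnc to 0.936 between Fbln1 and Sparc, and Postn and Emilin1 reached 0.874.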

How the data were processed

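Single-cell 3′ libraries of whole hearts, 1 per genotype, were deposited as raw UMI count matrices. Per the submitters' processing notes, Cell Ranger 5.0.1, Seurat 4 and the build GRCm38.p6 were used, with no order given. The authors also deposited an embedding, whose coordinates are a score and served only to pick cells in an alternative. The matrices held 14114 control and 13885 H2CKO barcodes with 195825720 and 201477256 UMIs. Of 22401 features, 2 are reporters.

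A cell was kept if it had 500 genes or more and no more than 10% of its UMIs were mitochondrial. Scrublet's automatic threshold marked 1048 control cells and 0 H2CKO cells, so the cells with the highest scores were left out per library instead (729 and 925). Clusters (Leiden, resolution 1, 30 principal components, 2000 variable genes without members, 15 neighbours per library; scanpy 1.11.5) were named from markers in 13 class lists.

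UMIs were summed per class and library, as UMI counts per 1000000 (CPM). Brackets hold exact 95% intervals, Poisson for levels and conditional binomial for ratios, which cover counting error only. The text names all 10 members, the listed genes past 2-fold in endothelial-like or mesenchymal-like cells, the 3 highest listed genes in mesenchyme, the 3 genes most like each member, and a few genes beside these chosen after their values were seen (Fbn1, Hand2). Members and lists were chosen with earlier results of these data known. Ratios and intervals were tested on data simulated with counting error only, which cannot show how they behave under spread between cells or embryos. With 1 library per genotype no test between genotypes was made.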

Additional observations from a re-analysis of the deposited data

Results flagged for a closer look

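Sparc, the collagen-binding matricellular gene, was set apart because the difference between the genotypes went opposite ways in the 2 endothelial clusters. In endothelial-like cells its log2 ratio of H2CKO over control was 0.81, from 474 to 835 CPM, and in the Klf2-rich cluster it was −0.55, from 980.3 to 667 CPM. Neither passed 2-fold, each rests on 1 library per genotype, and the difference between the clusters was not tested. With both clusters summed the log2 ratio was −0.08. In cells with no vascular-marker UMI it was 1.16 in endothelial-like cells and −0.07 in the Klf2-rich cluster.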

How the results depend on the processing

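No paired analysis was possible because each genotype has 1 library. The counts of members lower in H2CKO by 2-fold were 3 in endothelial-like cells, 4 in the Klf2-rich cluster, 4 in mesenchymal-like, 1 in epicardial-like and 1 in cardiomyocyte-like cells, with 0 higher; brackets below give the share of all genes compared that passed 2-fold the same way under the same setting. With each cell named by its own markers, they were 5 in endothelial-like (7.66%), 2 in mesenchymal-like (2.39%), 2 in epicardial-like (5.69%) and 0 in cardiomyocyte-like cells (0.384%), and this naming gives no value for the Klf2-rich cluster. With the gene-span trend taken out they were 2 in the Klf2-rich cluster (1.09%) and 0 in mesenchymal-like (0.582%), epicardial-like (0.829%) and cardiomyocyte-like cells (0.434%), with 1 member (Sparc) higher in endothelial-like cells (2.86%). Centred on the median gene, they were 2 in the Klf2-rich cluster (1.28%) and 2 in mesenchymal-like cells (0.811%), with 1 higher in endothelial-like cells (2.88%). With the members used in clustering, with haemoglobin and mitochondrial UMIs left out, or with a minimum of 100 CPM, mesenchymal-like cells had 2 (2.98%, 2.23% and 4.21%), and the last of these gave 0 in cardiomyocyte-like cells (0.728%). The mean of each cell's CPM gave 2 in the Klf2-rich cluster (4.6%). No doublet removal and Scrublet's automatic threshold each gave 2 in epicardial-like (2.81% and 5.39%) and 0 in cardiomyocyte-like cells (0.577% and 0.510%). Cells of the deposited embedding gave 3 and 4 in those classes (3.46% and 0.968%), no CPM minimum gave 4 in cardiomyocyte-like cells (0.364%), and clustering at resolution 0.5 or 2 gave 2 (0.687% and 0.808%). In alternatives chosen after seeing the data, both endothelial clusters pooled gave 6 (7.21%), and cells with no vascular-marker UMI gave 1 lower (13.2%) and 1 higher (3.55%) in endothelial-like cells. Of 178 counts of members lower or higher by 2-fold, 149 stayed within 1.5 times the count above and 29 moved. The counts of members higher rose above 0 only in endothelial-like cells, in the settings named above as giving 1 higher. Many of the 149 are therefore counts of 0 that stayed 0, and the 149 does not show how steady the lower counts were. Of 890 log2 ratios between the libraries, 380 moved beyond their counting interval, as did 53 of 140 CPM levels and 17 of 120 ratios of GFP-positive against other cells, counted over 6 groups of H2CKO cells that include the epicardial-like and Meox1-rich ones. Postn in endothelial-like cells stayed past 2-fold in 19 of 19 alternatives (−2.67 to −1.66), as did Fbln2 (−1.78 to −1.05) and Tnc (−2.99 to −1.75) in the Klf2-rich cluster in 17 of 17. Spon1 in endothelial-like cells did so in 18 of 19 (−4.10 to −0.99) and Fn1 in 15 of 19 (−1.54 to −0.85). Thbs1 and Eln in the Klf2-rich cluster did so in 13 and 11 of 17. In endothelial-like cells Tnc rested on 1 and 11 UMIs and Eln on 5 and 8, control and H2CKO, under the minimum level, so no difference was read there.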

Other observations

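The share of a member's transcripts that each class held depends on the number of cells kept per class as well as on the levels. The class with the largest share was the same in both libraries for Postn, Fbln2, Thbs1, Emilin1, Spon1 and Eln, and differed for Fn1, Fbln1, Sparc and Tnc. Of all Fn1 UMIs in kept cells, 32.6% lay in epicardial-like cells in the control and 11.2% in H2CKO, and 8.28% and 26.4% in endothelial-like cells. Mesenchymal-like cells held 68.8% and 62.3% of Thbs1 UMIs and 51.7% and 58.9% of Fbln2 UMIs. Cells were recovered from 1 preparation per genotype, and the parts of cell recovery and of level in these shares were not separated.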
